A study of Mus musculus with 12 samples.

Results

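Cysteine-containing CDR3α were described among the T cell receptor (TCR) α-chain rearrangements of newly developed thymic regulatory T cells (Treg). A clonotype was a V segment, a CDR3α amino acid sequence and a J segment. It was a member when a cysteine stood at any position after the first residue, which is normally the conserved cysteine of the V segment. These were 138 of the 20615 in-frame clonotypes (0.669%), and they held 474 of the 190549 in-frame unique molecular identifiers (UMIs, each marking 1 cDNA molecule; 0.249%). Libraries came from sorted CD4+CD8-Thy1.1+GFP+ thymocytes of 3-week-old B6 mice, 1 mouse per library, with 4 wt, 4 Il2° (IL-2-deficient) and 4 Il15° (IL-15-deficient) mice. All mice carried the Rag2-Gfp transgene, in which GFP marks recent Rag2 expression, the Foxp3-Thy1a reporter, which places Thy1.1 on Foxp3+ cells, the Kaa Tcrb transgene, which gives the cells 1 shared TCRβ chain, and a Tcra+/null genotype, which leaves 1 functional Tcra allele. The tables hold rearrangements and no other transcripts, so the labelled cell type could not be compared with marker genes.

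The CDR3 loops of a TCR lie over the peptide held by the MHC molecule, and the CDR3α is made where a V and a J segment are joined, with bases trimmed and untemplated bases added. Thymocytes are selected by how strongly their TCR binds self peptide and MHC: very strong binding can delete a cell or divert it, and Treg develop among cells with comparatively strong binding. A cysteine near the top of a CDR3 is known as a mark of strongly self-reactive TCRs, which are largely lost from the conventional repertoire and are enriched among precursors of CD8αα intraepithelial lymphocytes.

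The most abundant nucleotide sequence is shown for the 8 members with the highest mean share of in-frame UMIs, for the 1 member found in all 4 wt libraries, and for a member with TRAJ18 inside a TRAJ17 rearrangement, which was chosen after its values were seen. Each runs 5′ to 3′ from the first codon of the CDR3 to its last, and the codon of the internal cysteine is in capitals.
TRAV7-3 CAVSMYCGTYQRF TRAJ13: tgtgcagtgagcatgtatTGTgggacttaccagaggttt
TRAV3D-3 and TRAJ17, 14 residues: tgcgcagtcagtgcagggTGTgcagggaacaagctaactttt
TRAV4D-3 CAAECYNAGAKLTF TRAJ39: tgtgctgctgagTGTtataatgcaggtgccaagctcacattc
TRAV3D-3 and TRAJ18, 15 residues: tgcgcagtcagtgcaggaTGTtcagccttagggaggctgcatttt
TRAV7-2 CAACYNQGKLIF TRAJ23: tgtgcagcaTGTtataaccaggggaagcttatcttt
TRAV4N-3 and TRAJ17, 37 residues: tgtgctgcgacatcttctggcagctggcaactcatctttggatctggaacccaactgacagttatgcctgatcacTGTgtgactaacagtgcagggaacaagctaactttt
TRAV14-2 and TRAJ39, 13 residues: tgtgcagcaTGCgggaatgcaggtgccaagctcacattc
TRAV7-3 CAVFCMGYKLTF TRAJ9: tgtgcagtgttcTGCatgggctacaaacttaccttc
TRAV12-3 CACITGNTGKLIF TRAJ37: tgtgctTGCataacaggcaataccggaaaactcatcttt
TRAV3-1 and TRAJ17, 38 residues: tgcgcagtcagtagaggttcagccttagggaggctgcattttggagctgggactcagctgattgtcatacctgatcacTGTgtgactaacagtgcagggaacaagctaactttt
The joined segments lie on chromosome 14 (GRCm38, plus strand). The V segments of members that the GENCODE M21 annotation lists, 38 of 40, stand between chr14:52427928-53807115, and all 30 J segments stand between chr14:54162644-54217901. A CDR3α is coding sequence that the germline does not hold in 1 piece, so a member has no single genome position.

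The members fell into 3 kinds. In 122 the cysteine stood inside a CDR3α of 10 to 17 residues. In 11 the assigned CDR3α had 37 to 39 residues and ran through 1 J segment into another. In 5 the cysteine was the last residue. Those 5 had 1 UMI each and were found in 1 library each. The first residue was not a cysteine in 3 of the 138.

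Among the 122, the cysteine stood mostly where V meets J. It was residue 4 in 53 clonotypes, residue 3 in 24 and residue 5 in 19, so that 96 of 122 (78.7%) had it at residues 3 to 5. It was central, at most 2 positions from the middle of the CDR3α, in 46 clonotypes, closer to the V side in 74 and closer to the J side in 2. The codon was TGC in 69 and TGT in 53 when the 1 member with several cysteines, TRAV7-4 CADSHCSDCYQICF TRAJ35, is counted by its most central one. The residue before the cysteine was most often alanine (50 clonotypes), and the residue after it most often asparagine (29), serine (17) or glycine (16). Inside the CDR3α of all in-frame clonotypes, without first and last residue, alanine averaged 16.8% of residues, glycine 12.5%, serine 8.85% and asparagine 8.56%. Other clonotypes were not compared at the same positions.

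Neither germline match held the codon whole in the 121 members that could be compared with both segments. Of the 44 J segments in the tables, 43 could be read in frame from their conserved phenylalanine or tryptophan and glycine codons, and 0 of those 43 had a cysteine codon in the part that enters the CDR3α. In the 121 members whose V segment the annotation lists, none of the 3 bases of the codon lay in the stretch that matched the V segment, counted from the start of the CDR3α to its first difference from the germline. Counted from its end back to the first difference, the stretch that matched the J segment held 0 of the 3 bases in 56 of the 122 members, 1 in 45 and 2 in 21. The codon overlapped or touched the J match in 80 of the 121, and it began right after the V match in 55. TRAV13N-2 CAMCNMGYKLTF TRAJ9, chosen after its values were seen, is 1 of the 21 in which 2 of the 3 bases of the codon matched the J segment.

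Between the V and J matches, members had on average 5.91 ± 1.49 bases that neither segment accounted for (SD over 12 libraries, 3.86 to 8.83), and the other in-frame clonotypes 3.73 ± 0.114 (3.48 to 3.86). The 11 members with 2 J segments and the 5 ending in cysteine were left out of these means. The member mean was the higher in 12 of 12 libraries. No member had 0 such bases, against a mean of 9.16% of the other clonotypes. Over the 121 distinct members whose V segment was listed, the median was 4 bases and the range 1 to 31, so a few long values raise the mean. A match ended at its first difference, so a changed base inside a segment lengthened the count. TRAV1 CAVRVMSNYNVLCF TRAJ21, for example, had a J match of 4 bases. A base was counted as unmatched only by its letters, and having a cysteine codon that neither segment encodes already requires at least 1, so no test was made.

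Cysteine was the rarest of the 20 residues inside the CDR3α of these Treg. Leaving out the first and last residue of each in-frame clonotype, it made up 0.0396% ± 0.0105 of residues (SD, n = 12 libraries, 0.0218% to 0.0524%), and histidine, the next in order, 0.641%. By length, 1.05% of the 570 in-frame clonotypes of 10 residues were members, 1.19% of the 1676 of 11 residues, 0.911% of the 3072 of 12, 0.597% of the 6195 of 13, 0.406% of the 6159 of 14 and 0.290% of the 2069 of 15. From 11 to 15 residues the share was thus lower at each added residue, but it was 0.732% of the 683 of 16 to 30 residues (5 members), and 0 of the 167 shorter than 10 residues were members.

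**Figure D1:**
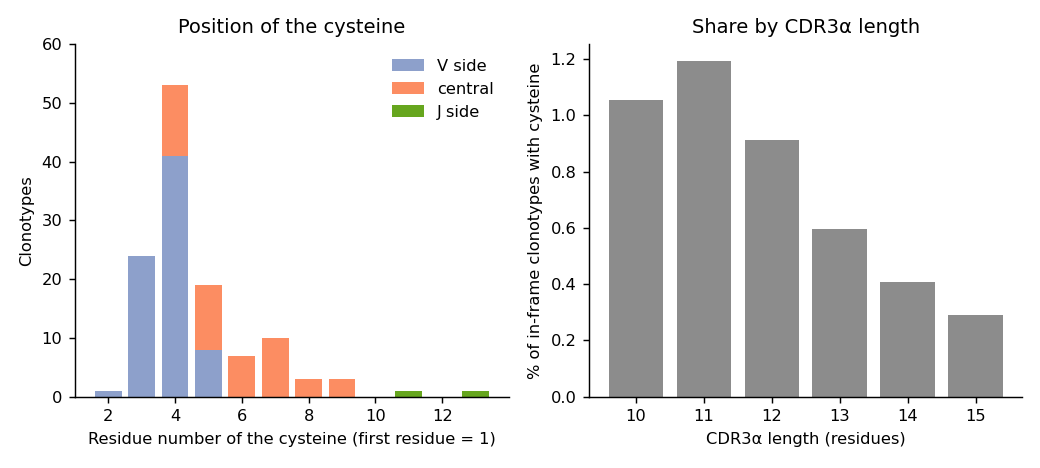
Left, number of cysteine clonotypes by the residue number of the cysteine, coloured by whether it lies at most 2 positions from the middle of the CDR3α (central) or closer to either end, for the 122 members with the cysteine inside a CDR3α of 10 to 17 residues. Residues 3 to 5 hold 96 of them. Right, percentage of all in-frame clonotypes of each CDR3α length that contain an internal cysteine, for lengths of 10 to 15 residues. Among these it is highest at 11 (1.19%) and lowest at 15 (0.290%).

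The 11 long members shared 1 layout. Each was assigned to TRAJ17 and contained, before the TRAJ17 part, another J segment up to its 3′ end. This was TRAJ18 in 10 clonotypes and TRAJ22 in 1. The TRAJ22 form held 60 of the 60 bases of that exon, and the TRAV3-1 form 62 of the 66 bases of TRAJ18. The assigned CDR3α thus ran past the conserved phenylalanine and glycine codons of the first J segment, and the cysteine lay after them. The last 30 bases of the other segment were required with at most 2 mismatches. In all 11, exactly 9 bases, atcactgtg, stood between the end of the other J exon and the start of the TRAJ17 exon. The cysteine codon TGT lay inside these 9 bases. In the genome the TRAJ18 exon (chr14:54200777-54200842) ends 932 bases before the TRAJ17 exon (chr14:54201775-54201837), and the TRAJ22 exon (chr14:54197248-54197307) ends 4467 bases before it. A J segment is preceded in the germline by a recombination signal whose heptamer, in its common form, reads CACTGTG beside the exon, or CACAGTG on the other strand. CACTGTG was present in 11 of the 20615 in-frame CDR3α sequences (0.0534%), which were these 11 members, and CACAGTG in 22 (0.107%), of which 0 were members. Such a letter match only describes the sequence. The germline bases before the TRAJ17 exon were not compared with these 9 bases, and whether they are that signal was not tested.

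These 11 held 45 of the 474 member UMIs, of which the wt libraries had 18, the Il2° libraries 6 and the Il15° libraries 21, and 9 of the 12 libraries contained at least 1. They joined TRAV3-1, TRAV4N-3, TRAV5-1, TRAV6-7/DV9, TRAV6D-7, TRAV7-3 and TRAV7D-3, so the same 9 bases followed several V segments. The TRAV6-7/DV9 and TRAV6D-7 forms had the same nucleotide sequence, and whether they are 1 rearrangement under 2 V names was not tested. The TRAJ22 form had 8, 1 and 1 UMIs in Il15° replicates 2, 3 and 4 and 0 in the other 9 libraries. The TRAV3-1 form was in 2 wt libraries, with 6 UMIs in all. Over all rows of the tables, in frame or not, 21 clonotypes held 2 J segments, and the 10 that were not members were out of frame or held a stop codon, among them 8 with TRAJ26 before TRAJ25. Of the 22 in-frame clonotypes longer than 30 residues, 11 were these.

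Before the libraries were compared, their overlap was examined, because 45 of the 138 members were found in more than 1 library. Of all nucleotide sequences found in exactly 2 of the 12 libraries, 6578 of 8186 (80.4%) fell in 9 of the 66 library pairs, with 356 to 1322 sequences per pair, whereas the other 57 pairs had 0 to 125. The 9 pairs were wt replicates 1 and 2, wt replicate 2 and Il2° replicate 1, wt replicates 3 and 4, wt replicate 4 and Il2° replicate 4, Il2° replicates 2 and 3, Il2° replicates 3 and 4, Il15° replicates 1 and 4, Il15° replicates 2 and 3, and Il15° replicates 3 and 4. They are called linked here and tie the libraries into 3 chains. In 3498 of the 6578 (53.2%), 1 library of the pair had a single UMI and the other 3 or more. The labels name no shared animal or preparation for these pairs, and the cause was not tested.

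Members shared between libraries were mostly in linked pairs. The linked pairs wt 1 and 2, Il15° 1 and 4, wt 2 and Il2° 1, wt 3 and 4, and Il15° 3 and 4 had 11, 10, 8, 8 and 8 members in both libraries. The other linked pairs had 4 (wt 4 and Il2° 4), 3 (Il2° 2 and 3), 1 (Il2° 3 and 4) and 1 (Il15° 2 and 3), and unlinked pairs had 0 to 3. Of the 45 members in more than 1 library, 39 stayed within 1 chain and 6 were in more than 1. Of the 201 member sequences counted per library, 38 (18.9%) had more UMIs in a linked library, 29 of them with a single UMI, against 22.9% of all 57431 rows. Results that rest on presence are therefore also given without sequences that were larger in a linked library, and sharing also between chains only. Both alternatives were chosen after seeing the data.

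**Figure D2:**
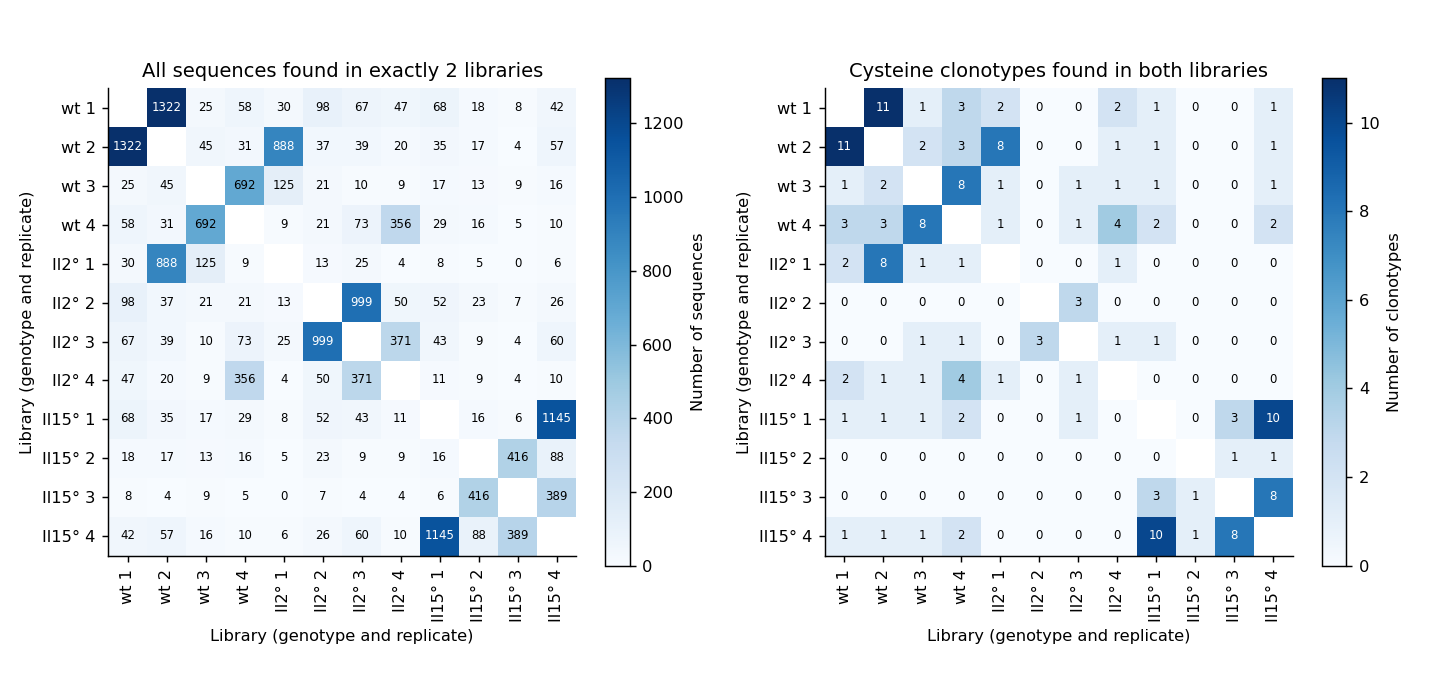
Number of nucleotide sequences found in exactly 2 libraries, by library pair (left, all sequences), and number of cysteine clonotypes found in both libraries of a pair (right). Axes name the genotype and replicate. The 9 linked pairs in the left panel, from 356 to 1322, stand above all others (at most 125), and the highest member counts (8 to 11) are in 5 of those pairs, whereas the other 4 have 1 to 4.

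The largest members were small and uneven between mice. TRAV7-3 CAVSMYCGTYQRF TRAJ13, with a central cysteine, had 1, 0, 13 and 1 UMIs in Il15° replicates 1 to 4 and 0 in every wt and Il2° library. The TRAV3D-3 and TRAJ17 clonotype of 14 residues had 12 and 2 UMIs in Il15° replicates 3 and 4 and 0 elsewhere. TRAV4D-3 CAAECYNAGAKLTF TRAJ39 had 1, 9 and 1 in Il15° replicates 1, 3 and 4. All 3 were thus high in Il15° replicate 3 and absent from the other genotypes. The TRAV3D-3 and TRAJ18 clonotype of 15 residues followed them, with 1, 8 and 2 UMIs in the same 3 libraries. Together these 4 held 42 of the 55 member UMIs of Il15° replicate 3 (76.4%), and the libraries around it in its chain held 1 or 2 UMIs of each that they contained.

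The other leading members were spread differently. TRAV7-2 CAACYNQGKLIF TRAJ23 had 2, 5, 0 and 4 UMIs in the wt libraries, 0 in each Il2° library, and 1, 0, 0 and 3 in the Il15° libraries, always with the same nucleotide sequence. The TRAV14-2 and TRAJ39 clonotype of 13 residues had 4 and 2 UMIs in wt replicates 3 and 4 and 3 and 3 in Il15° replicates 1 and 4, with 2 nucleotide sequences. TRAV7-3 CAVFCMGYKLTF TRAJ9 had 9 and 2 UMIs in wt replicates 3 and 4 and 0 elsewhere. These 3 were missing from all 4 Il2° libraries, where 3 UMIs, the limit that a count of 0 allows, were 0.0170% to 0.0411% of in-frame UMIs.

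TRAV12-3 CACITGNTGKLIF TRAJ37 was the most widespread member. It had 2, 1, 4 and 1 UMIs in the wt libraries, 1, 0, 0 and 1 in the Il2° libraries and 0 in the Il15° libraries, and it was made by 3 nucleotide sequences. It was the only member public in a genotype, that is, found in all 4 of its libraries, against 618 of 10702 in-frame clonotypes in wt (5.77%). Of the in-frame clonotypes, 423 of 10314 (4.10%) were public in Il2° and 403 of 7203 (5.59%) in Il15°, and 0 of the 44 and 0 of the 41 members there were. No member was in 10 or more libraries.

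No member was found in all 3 genotypes. There were 123 in 1 genotype, namely 54 wt, 31 Il2° and 38 Il15° members, and 15 in 2 genotypes, of which 12 were in wt and Il2°, 2 in wt and Il15° and 1 in Il2° and Il15°. Of the 20477 other in-frame clonotypes, 1899 (9.27%) were in all 3 genotypes. In wt, Il2° or Il15° alone were 39.1%, 22.5% and 27.5% of members and 27.0%, 26.2% and 19.0% of the others. In wt and Il2° alone were 8.70% of members and 11.8% of the others. For wt and Il15° the shares were 1.45% and 3.81%, and for Il2° and Il15° 0.725% and 2.88%. The linked pairs join wt to Il2° libraries and leave the Il15° libraries to themselves, and their part in these counts was not tested. Members and others were not matched for clone size or for unmatched bases.

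Members were seen again less often than other clonotypes of the same library. In the 12 libraries, 53.6% ± 22.5 of members (SD) were also found in another library, against 77.0% ± 9.19 of the other in-frame clonotypes, and the share was lower for members in 11 of 12 libraries (difference -23.3 percentage points, exact sign-flip permutation test over libraries, Benjamini-Hochberg adjusted p = 0.00439 over 6 measures). When only libraries of another chain counted, the shares were 11.4% ± 9.86 and 53.1% ± 6.99, lower in 12 of 12 libraries. Without sequences larger in a linked library they were 27.1% ± 8.50 and 61.8% ± 6.10. Over distinct clonotypes, 6 of 138 members (4.35%) and 4859 of 20477 others (23.7%) were in more than 1 chain. Clone sizes were not matched, and a single UMI was seen for 50.3% of members and 36.7% of the others. The membership rule also leaves out junctions with 0 unmatched bases, which a mean of 9.16% of the others had. The part of either in the lower sharing was not tested.

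Members were also made by fewer nucleotide sequences. A member had 1.00 ± 0.0126 nucleotide sequences in a library, and another in-frame clonotype 1.22 ± 0.0284, and members had fewer in 12 of 12 libraries (difference -0.214, the same test, adjusted p = 0.00293). Over all libraries together, 4 of the 138 members had more than 1 nucleotide sequence. A clonotype of 1 UMI can show only 1 nucleotide sequence, and such clonotypes were 50.3% of members and 36.7% of the others. Among clonotypes with at least 2 UMIs the difference was -0.342 (the same test, adjusted p = 0.00244), but clone sizes were not matched. A cysteine codon that neither segment encodes requires at least 1 unmatched base, and a mean of 9.16% of the others had none. The membership rule itself can thus lower this number, and its part was not tested.

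Clones of members were small. Summed over the 12 libraries, 46 members had 1 UMI, 23 had 2, 44 had 3 to 5 and 25 had 6 or more, and the largest had 15. A single UMI was seen for 50.3% ± 19.1 of members per library and for 36.7% ± 10.2 of the others, more often for members in 9 of 12 libraries (difference 13.6 percentage points, the same test, adjusted p = 0.0139). A clonotype of 1 UMI can hold a wrong base, and 19 of the 98 cases of a member with 1 UMI in a library (19.4%) stood 1 nucleotide from a larger sequence of the same V, J, length and library, against 9.93% of the 16114 such cases among other clonotypes. In 3 of these 19 the larger sequence was itself a member. Over clonotypes of every size the share near a larger one was 13.5% ± 9.60 for members and 9.04% ± 0.953 for others, a difference within the spread between libraries (8 of 12 higher, adjusted p = 0.134). With clonotypes defined by nucleotide sequence the difference was reversed (-7.19 percentage points, the same test, adjusted p = 0.0397).

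The CDR3α length of members depended on the 11 with 2 J segments. With them members averaged 14.95 ± 1.94 residues and the others 13.1 ± 0.0499 (difference 1.81, higher in 9 of 12 libraries, the same test, adjusted p = 0.0139). Without them members averaged 12.7 ± 0.386 residues, below the others in 10 of 12 libraries (difference -0.396, the same test, adjusted p = 0.00879).

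**Figure D3:**
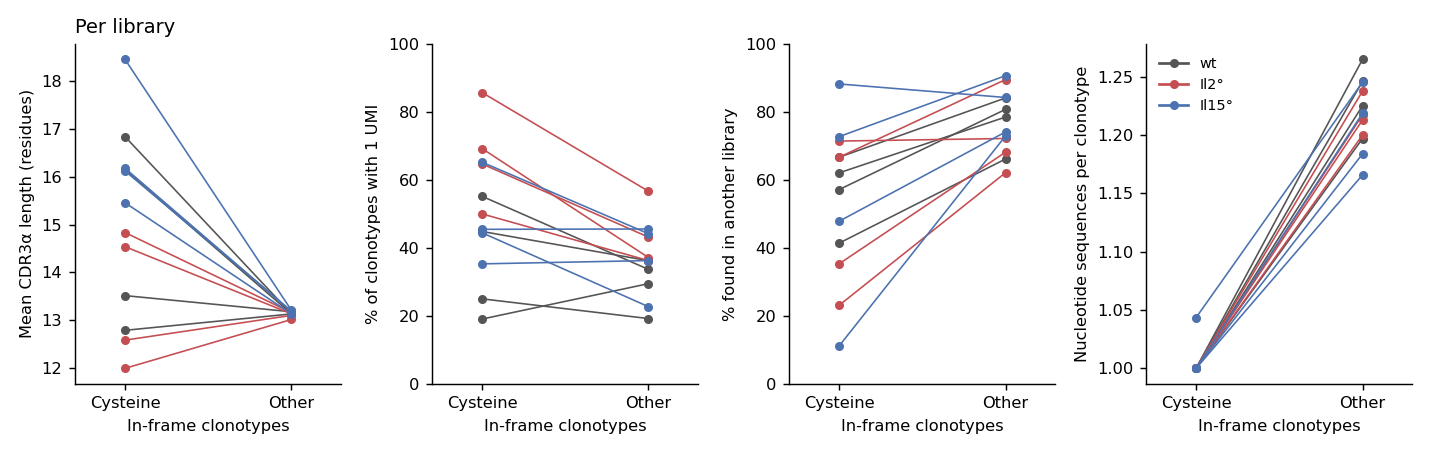
Mean CDR3α length in residues, percentage of clonotypes with 1 UMI, percentage also found in another library, and nucleotide sequences per clonotype, for cysteine clonotypes and the other in-frame clonotypes of each library. Each line is 1 library, coloured by genotype, and the length and sequence axes do not start at 0. The sharing line goes up from members to others in 11 of 12 libraries and the sequence line in 12 of 12.

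Sequences with a stop codon were too few for a reference. They numbered 66 clonotypes over all libraries, of which 6 had an internal cysteine (9.09%, 95% Wilson interval 4.23% to 18.4%, counting error only), and each library had 4 to 10. The mean share per library was 7.08% ± 9.62, and it was 0.451% ± 0.118 among in-frame clonotypes, which did not pass the test (adjusted p = 0.0750, in-frame higher in 7 of 12 libraries).

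No V family passed the test of a difference in use between members and other clonotypes. Members used 40 of 104 V segments, and TRAV4D-3 alone gave 28 of the 138. By family, TRAV4 had 47 members, TRAV7 26, TRAV12 16, TRAV13 11, TRAV3 9, TRAV6 9 and TRAV14 8. TRAV4 made up 29.3% ± 11.7 of the members of a library and 27.2% ± 1.73 of the others, and TRAV7 18.9% ± 10.3 and 20.2% ± 1.21. For TRAV12 the shares were 12.9% ± 9.39 and 13.6% ± 2.61, and for TRAV14 6.91% ± 5.26 and 7.35% ± 0.461. The widest gaps among these families were in TRAV13, at 8.66% ± 9.11 of members and 3.55% ± 0.416 of others, and TRAV6, at 6.10% ± 5.59 and 9.69% ± 0.963, and TRAV3 had 7.83% ± 6.75 and 5.12% ± 0.380. None of the 12 families tested passed (0 by the exact sign-flip permutation test). The lowest adjusted p of that test was 0.0703, for TRAV8, at 0.490% ± 1.70 of members and 2.20% ± 0.526 of others. The 3 families at an unadjusted p under 0.05 were TRAV16, TRAV6 and TRAV8. The duplicated V segments written with D or N are near copies, so the exact copy of a member is uncertain, and merging them by name changed no call.

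Among J segments 3 passed. Of the 21 tested, TRAJ17 was used more by members and TRAJ15 and TRAJ6 less. Members are defined by CDR3α residues, which V and J segments encode in part, so the rule itself can favour some segments. The J match held 1 base of the cysteine codon in 45 of 122 members and 2 in 21, and this part was not tested. TRAJ17 made up 12.2% ± 7.30 of members of a library and 3.56% ± 0.457 of others (adjusted p = 0.0376), but 11 of its 15 members were those with 2 J segments, and without them it stood at 3.63% ± 4.11. TRAJ17 also did not pass in 8 of the 12 fits that left out 1 mouse (each Il15° mouse, Il2° replicates 1 and 2, and wt replicates 3 and 4, adjusted p up to 0.0752), nor weighted by UMIs (adjusted p = 0.0615) or without sequences larger in a linked library (adjusted p = 0.0537). TRAJ15 made up 0.362% ± 1.26 of members and 4.18% ± 0.295 of others (lower in 11 of 12 libraries, exact sign-flip permutation test, adjusted p = 0.0103), with 1 member among 810 in-frame clonotypes. TRAJ6 made up 0.287% ± 0.995 and 2.07% ± 0.320 (lower in 11 of 12, adjusted p = 0.0103), with 1 member among 462. No member of either was found in the other 11 libraries. TRAJ15 and TRAJ6 passed in each fit that left out 1 mouse, but neither passed for central members alone (adjusted p = 0.0698 and 0.706).

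The other frequent J segments did not pass. TRAJ9 had 13 members and 8.87% ± 5.91 of the members of a library, against 7.03% ± 0.552 of others. TRAJ13 and TRAJ39, which serve 3 of the 8 leading members, stood at 6.99% ± 5.41 and 6.23% ± 4.04 of members and 3.38% ± 0.424 and 3.30% ± 0.267 of others (adjusted p = 0.145 for both). TRAJ26, TRAJ27, TRAJ31, TRAJ12 and TRAJ37 had 8, 11, 8, 9 and 4 members and differed from the others by less than their own spread between libraries.

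**Figure D4:**
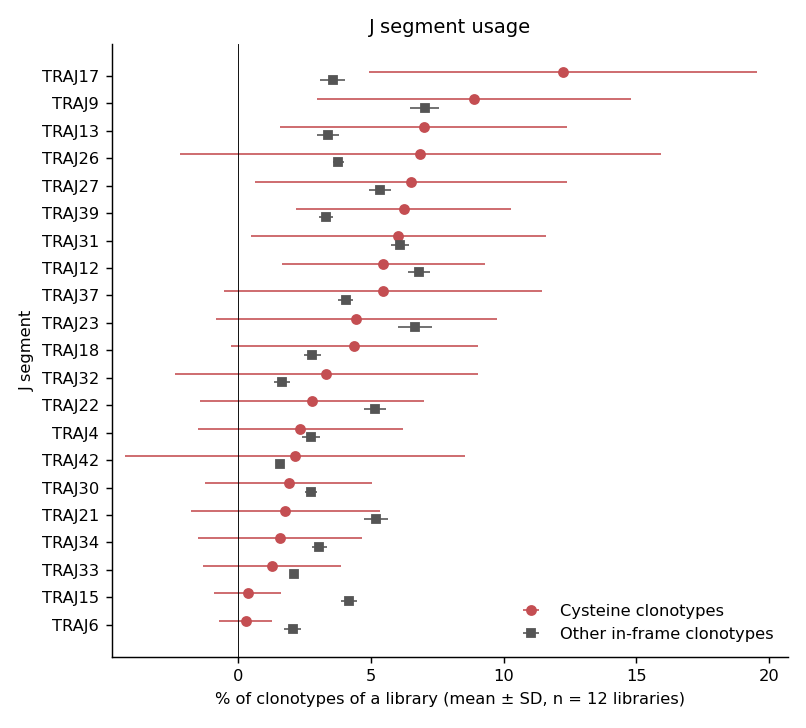
Percentage of clonotypes of a library that use each J segment, for cysteine clonotypes (circles) and other in-frame clonotypes (squares), as mean ± SD over 12 libraries, for the 21 segments at 2% or more of either set. The segments that passed the test were TRAJ17 (12.2% and 3.56%), TRAJ15 (0.362% and 4.18%) and TRAJ6 (0.287% and 2.07%), and bars below 0 only mark an SD larger than the mean.

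Il2° mice had the lowest mean share of cysteine clonotypes, a difference that did not pass after adjustment. Whether lack of IL-2 or IL-15 alters the TCRs of developing Treg was the question of this comparison. Libraries held 7625 to 25980 UMIs in all, 7 to 29 members each and 8 to 64 member UMIs. In wt replicates 1 to 4, members were 0.543%, 0.576%, 0.434% and 0.568% of in-frame clonotypes, in Il2° replicates 0.432%, 0.281%, 0.368% and 0.240%, and in Il15° replicates 0.587%, 0.397%, 0.558% and 0.432%. Every wt library was above every Il2° library, the closest being wt replicate 3 and Il2° replicate 1, whereas Il15° libraries overlapped both. Within single libraries the 95% Wilson intervals were wide, from 0.116% to 0.495% in Il2° replicate 4 and from 0.378% to 0.779% in wt replicate 1.

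The wt mean was 0.530% ± 0.0655, against 0.330% ± 0.0862 for the Il2° libraries and 0.494% ± 0.0932 for the Il15° libraries (SD, n = 4). The difference between Il2° and wt had the smallest p that 4 against 4 mice allow in an exact 2-sided Mann-Whitney test (p = 0.0286), and it did not pass after adjustment over the 9 comparisons of shares (adjusted p = 0.171). The test takes libraries as independent, whereas linked pairs tie libraries within and between these genotypes. Il15° against Il2° gave an exact p = 0.0571 (adjusted p = 0.171), and Il15° against wt an exact p = 0.686. Without sequences larger in a linked library the means were 0.535% ± 0.0578 in wt, 0.335% ± 0.117 in Il2° and 0.530% ± 0.204 in Il15°, and Il2° and wt libraries then overlapped (exact p = 0.0571). They also overlapped without the 11 members with 2 J segments (exact p = 0.114).

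Counted by UMIs, the members' mean share of a wt library was 0.289% ± 0.0645 of its in-frame UMIs, that of an Il2° library 0.158% ± 0.0641 and that of an Il15° library 0.306% ± 0.151 (SD, n = 4). The wt libraries ranged from 0.238% to 0.383% and the Il2° libraries from 0.108% to 0.243%, so they overlapped (exact Mann-Whitney p = 0.0571, adjusted p = 0.171). Without the 11 members with 2 J segments they did not overlap, at 0.262% ± 0.0509 and 0.147% ± 0.0493 (exact p = 0.0286, adjusted p = 0.257). In Il15°, replicates 1, 2 and 4 had 0.232%, 0.237% and 0.224%, and replicate 3 had 0.532%. Leaving that library out placed the Il15° mean 0.0578 percentage points below wt. Fewer cells carrying a clonotype and less TCR mRNA per cell cannot be told apart in these bulk libraries.

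Central cysteines made up 0.143% ± 0.0268 of in-frame clonotypes in wt, 0.109% ± 0.0339 in Il2° and 0.186% ± 0.0722 in Il15°. No comparison passed (exact Mann-Whitney p = 0.114 for Il2° against wt and for Il15° against Il2°, adjusted p = 0.206, and p = 0.686 for Il15° against wt), and there were only 2 to 11 such clonotypes per library.

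**Figure D5:**
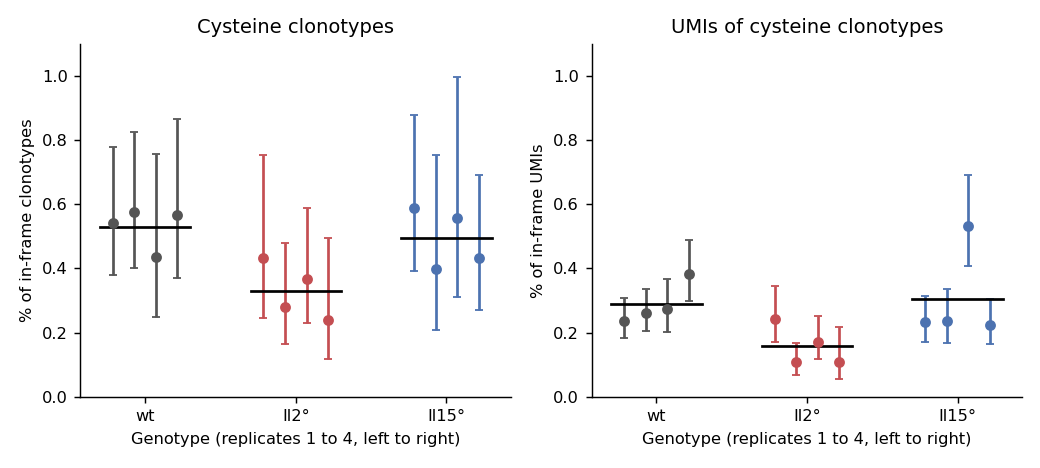
Cysteine clonotypes as a percentage of in-frame clonotypes (left) and their UMIs as a percentage of in-frame UMIs (right), by genotype. Points are libraries with 95% Wilson intervals and black lines are the means of 4 mice. In the left panel all wt libraries (0.434% to 0.576%) lie above all Il2° libraries (0.240% to 0.432%), and in the right panel Il15° replicate 3 (0.532%) stands apart.

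Single members were too rare to be tested between genotypes. The test needed at least 5 UMIs in at least 4 of 8 libraries, 26 members reached 5 UMIs in any library, and none did so in more than 1. So 0 members were among the 464 clonotypes tested for Il2° against wt, the 478 for Il15° against wt and the 362 for Il15° against Il2°, of which 0%, 0% and 0.276% passed in edgeR (46, 19 and 37 at an unadjusted p under 0.05, and 8, 5 and 3 passed in DESeq2). At a threshold of 1 UMI in 4 libraries, TRAV12-3 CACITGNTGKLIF TRAJ37, the TRAV14-2 and TRAJ39 clonotype of 13 residues and TRAV7-2 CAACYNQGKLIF TRAJ23 could be tested, and none passed. The lowest was TRAV12-3 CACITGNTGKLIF TRAJ37 for Il15° against wt (edgeR quasi-likelihood test, unadjusted p = 0.00681, adjusted p = 0.165), with 8 UMIs in wt and 0 in Il15°.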

How the data were processed

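TCRα libraries were made by 5′ template switching with UMIs and sequenced on a MiSeq. The authors built UMI consensus reads with pRESTO, assigned V, CDR3 and J with MiXCR and formatted the tables with VDJtools; versions are not given in the sources used here, and the labels name mm10. The deposited counts are UMIs per clonotype sequence, and the deposited fraction column and the segment end positions were not used. Whole-library totals were 7625 to 25980 UMIs, of which 95.6% were in frame (no stop or frame mark). Samples were grouped by genotype as labelled.

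Members and lists were chosen with earlier results of these data known. Rows with one V, CDR3α amino acid sequence and J were summed. Shares were compared by exact 2-sided Mann-Whitney tests (9 comparisons), and members with other clonotypes of the same library by exact sign-flip permutation of 12 differences (6 measures, and each V family or J segment at 2% or more), and p-values were adjusted by Benjamini-Hochberg and called below 0.05. Because libraries turned out to be linked, neither the 12 differences nor the libraries compared by Mann-Whitney tests are fully independent. edgeR 4.0.16 (quasi-likelihood, TMM) was fitted to all clonotypes with at least 5 UMIs in 4 of 8 libraries, with DESeq2 1.42.0 as an alternative. Named were the 8 members with the highest mean share of UMIs, those in 10 or more libraries, up to 2 public in 1 genotype alone per genotype, those past the edgeR threshold, and segments at 5% or more of members. Germline V and J sequences and coordinates came from GENCODE M21 (GRCm38, the same assembly as mm10). The tests were checked on simulated data. Intervals and limits cover counting error only, and reads of 1 UMI cannot be told from residual sequence errors. Python 3.11.15 and R 4.3.3 were used.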

Additional observations from a re-analysis of the deposited data

Results flagged for a closer look

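In Il15° mice, replicate 3 had 0.532% of its in-frame UMIs in cysteine clonotypes and the other 3 libraries 0.224% to 0.237%, a gap to the nearest library of 0.959 of the whole range, above the 95% critical value of Dixon's test for 4 samples. Its 4 largest members held 42 of its 55 member UMIs, and the other members 0.126% of in-frame UMIs. In the same genotype the difference between in-frame and stop-codon sequences in the share with an internal cysteine was -10.7 percentage points in replicate 2, where 1 of 9 stop-codon sequences had a cysteine, and 0 of the stop-codon sequences of the other 3 libraries had one. Chance alone would mark about 1 in 20 groups of 4 samples.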

How the results depend on the processing

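The 20 results were recomputed under alternatives, and 338 of 363 recomputed values kept direction and side of the threshold or, for a count of calls, stayed within 1.5 times. With the middle taken within 1 position, central cysteines were 0.00604 percentage points more frequent in Il2° than in wt. Leaving out 1 mouse moved the UMI share of Il15° against wt between -0.0578 and 0.0489 percentage points, negative only without Il15° replicate 3. Mean CDR3α length reversed for central members (-0.72 residues) and without members holding 2 J segments (-0.396). None of the central members held 2 J segments, and a cysteine early in a CDR3α counts as central only when that CDR3α is short. With clonotypes defined by nucleotide sequence, members were less often 1 nucleotide from a larger sequence (-7.19 percentage points, exact sign-flip permutation test, adjusted p = 0.0397). This passed the threshold, whereas the main result did not. The excess of single-UMI clonotypes no longer passed for central members alone (18.2 percentage points). Within 1 genotype, where 4 libraries are too few for any exact test to pass, in wt, Il2° and Il15° the length differences were 1.67, 0.384 and 3.37 residues, those of single-UMI clonotypes 6.38, 24.1 and 10.4 percentage points, of sharing -20.6, -23.9 and -25.5 percentage points, and of nucleotide sequences -0.233, -0.217 and -0.193. Of V families, 2 passed weighted by UMIs, 3 with at least 2 UMIs and 2 for central members, and leaving out 1 mouse gave 0 to 3 (3 without Il2° replicate 1, 1 without Il2° replicate 3). Of J segments, 1 (TRAJ15) passed with clonotypes defined by nucleotide sequence and 0 for central members, leaving out 1 mouse gave 2 or 3, leaving out members with 2 J segments or sequences larger in a linked library gave 2, and leaving out members ending in cysteine gave 4. Weighted by UMIs, and with at least 2 UMIs, 3 passed, of which TRAJ15 alone was among the 3 of the report. TRAJ6 was below the 2% minimum and untested there and with clonotypes defined by nucleotide sequence. Beyond these points on length, the cause of these changes was not tested, except that fewer members enter some of them. With the replicate number as a replicate block, the share of cysteine clonotypes in Il2° against wt was -0.200 percentage points (exact adjusted p = 0.375), and no call changed; the numbers did not pair the mice (correlations of same-numbered libraries -0.194 to 0.139, above 0.1 in 1 of 12 pairs, and 2 of 12 libraries correlating best with their own number). DESeq2 called 8, 5 and 3 clonotypes in the 3 contrasts, where edgeR called 0, 0 and 1. Depth limits every single member, at most 13 UMIs in a library.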
